A study of Mus musculus with 3 samples.

Results

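The HoxD cluster is a run of 9 homeobox genes on mouse chromosome 2, and its members were taken by name: Hoxd1, Hoxd3, Hoxd4, Hoxd8, Hoxd9, Hoxd10, Hoxd11, Hoxd12 and Hoxd13. All 9 were in the count tables, among 24421 genes, and each had at least 1 read in every library. Total RNA, depleted of ribosomal RNA, was sequenced from the female mouse embryonic stem (ES) cell line EL16.7, whose background is given as F2: 129S1/CastEiJx 129S1. The control cells, labelled wild type, received a scramble short hairpin RNA (shRNA) by lentivirus, and the cells called KD-1 and KD-2 each received a different shRNA against NUP153, a protein of the nuclear pore basket. All 3 cultures were undifferentiated, grew with LIF on γ-irradiated mouse embryonic fibroblast feeders from DR4 mice, were selected for 2 days in puromycin at 2 μg/ml, and gave 1 library each. Each library, the control included, can therefore carry feeder RNA, and every comparison below is between libraries, with no replicate check of the conditions.

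Hox genes encode DNA-binding proteins that give cells of the embryo their position along the body axis. In the HoxD cluster the order of the genes on the chromosome follows the order in which they are switched on: Hoxd1, Hoxd3 and Hoxd4 act early and towards the head, Hoxd8 and Hoxd9 in the trunk, and Hoxd10 to Hoxd13 late, in the posterior body, the limbs and the genitalia. In ES cells the cluster is largely silent, its promoters are covered by Polycomb proteins and carry activating and repressive histone marks together, and CTCF-bound sites separate the regulatory domains on its flanks. The study asked how NUP153 bears on CTCF and cohesin binding and on transcription.

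By the GENCODE annotation of GRCm38 the 9 genes lie on the plus strand within 96.8 kb, chr2:74668310-74765142, in the order Hoxd13, Hoxd12, Hoxd11, Hoxd10, Hoxd9, Hoxd8, Hoxd4, Hoxd3 and Hoxd1 by increasing coordinate. Hoxd13 spans chr2:74668310-74671599, Hoxd12 chr2:74675013-74677705, Hoxd11 chr2:74679557-74687016, Hoxd10 chr2:74691924-74695105 and Hoxd9 chr2:74697727-74700208. Hoxd8 spans chr2:74704615-74707933, Hoxd4 chr2:74711929-74729160, Hoxd3 chr2:74711927-74748442 and Hoxd1 chr2:74762980-74765142. The annotated spans of Hoxd3 and Hoxd4 start within a few bases of each other, the genes share exon sequence, and the antisense gene Hoxd3os1 overlaps both. The strand setting of the counting was not given in the sources used here, so the low counts of Hoxd3 and Hoxd4 are uncertain in how they were split.

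The promoters of the members are unlike in CpG content, which is the sequence feature tied to Polycomb cover in ES cells. All 9 members had a RefSeq window (GRCm38.p6) of 300 bases, 250 before and 50 after an annotated start, and Hoxd11 had a pair of them. The windows of Hoxd13, the member with the most reads, of Hoxd12, whose reads differed most in KD-2 among the members called there, and of Hoxd9, whose reads differed least, are given here on the plus strand with each CG pair in capitals.
Hoxd13, chr2:74667975-74668274: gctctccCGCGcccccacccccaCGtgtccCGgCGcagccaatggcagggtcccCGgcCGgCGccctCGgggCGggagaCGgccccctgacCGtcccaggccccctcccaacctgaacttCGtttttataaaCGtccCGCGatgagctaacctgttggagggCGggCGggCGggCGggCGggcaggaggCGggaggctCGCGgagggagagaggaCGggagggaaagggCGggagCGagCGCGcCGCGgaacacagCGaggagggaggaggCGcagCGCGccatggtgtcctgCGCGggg
Hoxd12, chr2:74674763-74675062: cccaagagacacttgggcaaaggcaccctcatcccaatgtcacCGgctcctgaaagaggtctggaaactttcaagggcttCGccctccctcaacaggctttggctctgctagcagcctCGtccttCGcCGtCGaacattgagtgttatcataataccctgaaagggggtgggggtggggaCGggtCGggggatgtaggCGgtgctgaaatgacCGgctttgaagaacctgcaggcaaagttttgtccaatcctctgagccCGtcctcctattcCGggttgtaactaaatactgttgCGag
Hoxd9, chr2:74697513-74697812: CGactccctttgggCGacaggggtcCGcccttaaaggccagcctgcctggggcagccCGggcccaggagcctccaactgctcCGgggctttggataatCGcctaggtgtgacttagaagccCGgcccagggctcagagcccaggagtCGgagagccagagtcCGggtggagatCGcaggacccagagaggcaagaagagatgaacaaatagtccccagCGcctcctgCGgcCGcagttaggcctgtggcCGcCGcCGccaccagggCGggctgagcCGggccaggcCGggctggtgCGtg
The Hoxd13 window held 37 CG pairs, more than 94.4% of the 32851 mouse windows of the same length, whose median was 7. The Hoxd12 window held 13, more than 62.1% of windows, and the Hoxd9 window 20, more than 73.5%. Hoxd1 held 29, Hoxd10 22 and Hoxd3 20, while Hoxd8 held 6 and Hoxd4 4, both below the median, and the pair of Hoxd11 windows held 4 and 25. The Hoxd4 window, chr2:74721728-74722027, lies at a RefSeq start inside the GENCODE span of the gene. The start of that span falls instead in the Hoxd3 window, chr2:74711743-74712042. The letters TATAAA, searched on both strands, occurred in 13.6% of all windows and, among the members, in those of Hoxd13, where the matches on the 2 strands overlap, and Hoxd4. The letters GGGCGG, on both strands, occurred in 35.7% of all windows and in those of Hoxd13, Hoxd9, Hoxd1 and the second window of Hoxd11.

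Reads on genes numbered 72344726 in the control library, 85258834 in that of KD-1 and 69839336 in that of KD-2. Nup153, the targeted gene, had 27870, 16451 and 11126 reads in that order. KD-1 differed from control by -0.99 on the log2 scale (SE 0.20, edgeR FDR = 0.000205) and KD-2 by -1.43 (SE 0.20, FDR = 2.91e-09), so both knockdown libraries fit their labels. Here and below, a gene was called where edgeR's likelihood ratio test gave an FDR under 0.05 over all 24421 genes and a fold change above 1.5, with the dispersion set to an assumed 0.01 (a coefficient of variation of 10%), since 1 library a condition cannot supply it. The SE covers counting and that assumption, and intervals on counts and ratios are 95% intervals that cover counting error only.

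Hoxd13, the last gene of the cluster to be switched on and a regulator of digit and genital development, held most of the reads of the cluster. The control, KD-1 and KD-2 libraries held 1304, 1394 and 2126 of its reads, and values below are given in that order where no library is named. Per length, its level was 7.51 RPKM (reads scaled to exon length and library size) in control, with an interval of 7.11 to 7.93, against 6.86 for KD-1 and 11.4 for KD-2. Hoxd13 was thus highest in KD-2 and a little lower in KD-1 than in control. It made up 70.7% of the reads of the 9 genes in control (exact Clopper-Pearson interval 68.6% to 72.8%), 68.6% for KD-1 and 70.4% for KD-2, and these 3 intervals overlap.

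Its posterior neighbours were read far less. Hoxd12, a limb and posterior gene next to it, had 42, 54 and 94 reads, or 0.237, 0.260 and 0.493 RPKM. Hoxd11, which patterns the forearm and kidney, had 99, 153 and 198 reads, or 0.336, 0.444 and 0.625 RPKM. Hoxd10, which acts in the hindlimb and its motor neurons, had 124, 139 and 199 reads, or 0.977, 0.935 and 1.46 RPKM. KD-2 was the highest library for all 4 of the genes from Hoxd10 to Hoxd13, and KD-1 lay on either side of control.

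The central and anterior genes were less alike. Hoxd9 had 49, 55 and 55 reads, or 0.328, 0.314 and 0.342 RPKM, nearly level across the libraries. Hoxd8 had 203, 193 and 310 reads, or 1.06, 0.859 and 1.5 RPKM, lowest in KD-1 and highest in KD-2. Hoxd4, a hindbrain gene that responds to retinoic acid, had 15, 25 and 22 reads, or 0.0728, 0.104 and 0.0991 RPKM. Hoxd3 had 2, 5 and 7 reads, and Hoxd1, which acts in sensory neurons, had 6, 14 and 9. Hoxd3 and Hoxd1 were the members with a mean under 10 reads, and their levels of 0.00683 and 0.0461 RPKM in control were within a few reads of nothing detected.

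Ordered by RPKM in control, Hoxd13 came first, then Hoxd8 and Hoxd10, then Hoxd11, Hoxd9 and Hoxd12, then Hoxd4, Hoxd1 and Hoxd3. The intervals separate Hoxd13 from Hoxd8, Hoxd10 from Hoxd11, and Hoxd12 from Hoxd4. Neighbours within each of those groups overlapped, so Hoxd8 and Hoxd10 were not resolved from each other, nor were Hoxd11, Hoxd9 and Hoxd12. In KD-1 Hoxd10 and Hoxd8 changed places within their overlapping intervals, and in KD-2 Hoxd12 and Hoxd9 did. The level did not fall evenly along the chromosome: Hoxd12, beside Hoxd13, was lower per length than Hoxd8, in the middle of the cluster.

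In KD-1 no HoxD gene was called in either direction. Over all genes, 1.61% were called higher and 1.55% lower in this comparison, and 2.23% and 2.26% of the genes averaging 10 or more reads. Hoxd13 had a log2 fold change of -0.13 (SE 0.21, edgeR FDR = 1), Hoxd8 of -0.30 (SE 0.25, FDR = 0.783) and Hoxd11 of 0.40 (SE 0.28, FDR = 0.679). The largest values, 1.05 for Hoxd3 (SE 1.22) and 0.98 for Hoxd1 (SE 0.73), rest on at most 14 reads, and the ratio of Hoxd3, 2.13, had an interval of 0.349 to 22.4. In bulk RNA, here and below, a change in the number of cells of a type and one in RNA per cell cannot be told apart. The median over the 9 genes was 0.13, with 5 above 0, beside a median of 0.02 over the 16670 genes that averaged 10 or more reads. Summed over the cluster, 1844 reads in control and 2032 in KD-1 gave a log2 ratio of -0.09 with an interval of -0.18 to 0.00. With DESeq2 size factors the ratio was -0.15 (-0.25 to -0.06), and without Hoxd13 it was 0.01 (-0.16 to 0.18).

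In KD-2 all 9 members had a value above 0, and 3 of them were called higher and none lower: Hoxd11, Hoxd12 and Hoxd13. Over all genes, which include some without a read, 8.12% were called higher and 4.69% lower. Among the 16670 genes averaging 10 or more reads these shares were 11.5% and 6.74%. The members called were 33.3% of the 9, too few genes for this share to be placed firmly against the background. Hoxd12 rose by 1.05 on the log2 scale (SE 0.34, edgeR FDR = 0.0175), a ratio of 2.08 with an interval of 1.43 to 3.07. Hoxd11 rose by 0.89 (SE 0.27, FDR = 0.0127), a ratio of 1.86 with an interval of 1.45 to 2.39. Hoxd13 rose by 0.60 (SE 0.21, FDR = 0.0386), and its ratio of 1.51, interval 1.41 to 1.62, lay just past the fold threshold. Hoxd10 lay just short of it, with a ratio of 1.49, a log2 fold change of 0.58 and FDR = 0.131.

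Of the other members in KD-2, Hoxd8 had a log2 fold change of 0.50 (SE 0.24, edgeR FDR = 0.158) and Hoxd9 of 0.06 (SE 0.35, FDR = 1). Hoxd4 had 0.44 (SE 0.52), Hoxd1 0.47 (SE 0.79) and Hoxd3 1.64 (SE 1.17, ratio 3.25, interval 0.619 to 32.1), all on few reads. The member median was 0.58, beside -0.02 over those better-read genes. Summed over the cluster, 3020 reads in KD-2 gave a log2 ratio to control of 0.60 with an interval of 0.52 to 0.69, and without Hoxd13 the ratio was 0.62. The 3 calls depend on the assumed dispersion: at 0.04, a coefficient of variation of 20%, no member was called, and 58 genes were called in all. In the same library the summed feeder-cell markers had a ratio to control of 1.88, and their part in the HoxD values was not tested.

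**Figure D1:**
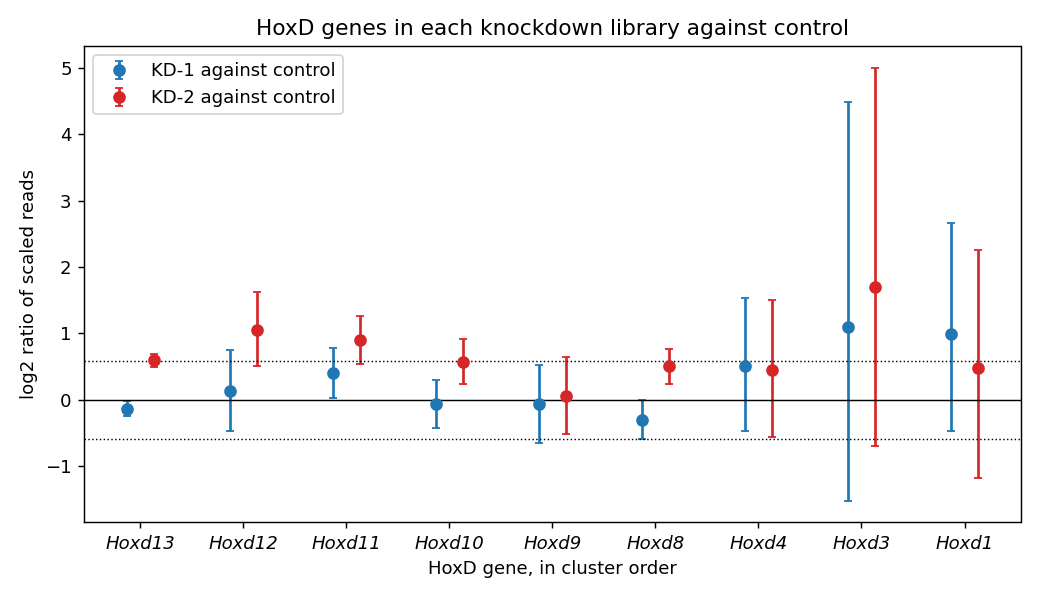
Log2 ratio of scaled reads of each HoxD gene in KD-1 (blue) and KD-2 (red) against control, in cluster order, with exact 95% intervals for counting error; dotted lines mark a fold of 1.5 in either direction. From Hoxd13 to Hoxd10 and at Hoxd8 the KD-2 points lie above the KD-1 points, at Hoxd9 they are close, and the intervals of Hoxd4, Hoxd3 and Hoxd1 are wide.

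By position, the 4 genes from Hoxd10 to Hoxd13 together had 1569, 1740 and 2617 reads. Their log2 ratio in KD-2 was 0.63 (interval 0.54 to 0.72). Hoxd8 and Hoxd9 together had 252, 248 and 365 reads and a ratio of 0.43 (0.19 to 0.66), and the 3 genes from Hoxd1 to Hoxd4 had 23, 44 and 38 reads and a ratio of 0.62 (-0.17 to 1.43). These 3 intervals overlap. In KD-1 the ratios to control were -0.08 (-0.18 to 0.02), -0.25 (-0.51 to 0.01) and 0.71 (-0.05 to 1.5), which overlap as well. For KD-2 against KD-1 they were 0.71 (0.62 to 0.80), 0.68 (0.44 to 0.92) and -0.09 (-0.76 to 0.57), and there the interval of Hoxd1 to Hoxd4, on 44 and 38 reads, lies below that of Hoxd10 to Hoxd13 and overlaps that of Hoxd8 and Hoxd9.

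The shRNAs target the same gene, and the KD-2 and KD-1 libraries were compared directly. Hoxd13, Hoxd12 and Hoxd8 were called higher in KD-2 than in KD-1 and none of the 9 was called lower, against 9.5% of all genes called higher and 6.72% called lower. Among the 16670 genes averaging 10 or more reads these shares were 13.5% and 9.44%. Hoxd13 differed by 0.73 on the log2 scale (SE 0.21, edgeR FDR = 0.00582), Hoxd8 by 0.80 (SE 0.24, FDR = 0.00906) and Hoxd12 by 0.92 (SE 0.32, FDR = 0.0264). Hoxd11 had 0.49 (SE 0.26, FDR = 0.183) and Hoxd10 0.64 (SE 0.26, FDR = 0.0691). Hoxd9 had 0.12 (SE 0.34) and Hoxd3 0.59 (SE 0.87), while Hoxd4 had -0.06 (SE 0.47; above 0 under DESeq2 size factors or library totals) and Hoxd1 -0.51 (SE 0.65). The summed log2 ratio was 0.69 with an interval of 0.61 to 0.78, a fold of 1.62. The summed feeder markers differed by 1.93 on the same scale, a fold of 3.81, with 16 of 16 called higher, and their part in the HoxD values was not tested. Nup153 itself differed between these libraries by -0.44 (FDR = 0.124). These calls, too, were lost at a dispersion of 0.04.

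Taking both knockdown libraries as a pair against control, with the spread estimated from that pair (1 residual degree of freedom), edgeR's quasi-likelihood test called no HoxD gene and 4 of 21164 genes, or 0.0189%. No member, and 293 of the genes, had an unadjusted p under 0.05. The lowest member p was 0.232, for Hoxd11, with a log2 fold change of 0.68. DESeq2's Wald test called 2 genes and no member. Nup153 itself was not called by the quasi-likelihood test (log2 fold change -1.19, unadjusted p = 0.00315, edgeR FDR = 1), so the lack of HoxD calls in a design of this size says little about the members.

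The genes beside the cluster were measured with it. Evx2, a homeobox gene on the minus strand next to Hoxd13 (chr2:74652991-74659557) that shares its limb enhancers, had 5, 4 and 34 reads. Evx2 rose in KD-2 by 2.63 on the log2 scale (SE 0.72, edgeR FDR = 0.000561), a ratio of 6.31 whose interval runs from 2.46 to 20.7. Against KD-1 its log2 fold change was 3.17 (FDR = 1.28e-05). Of the 7 neighbours with a read, no other was called in any of the 3 comparisons of libraries. Mtx2, a mitochondrial protein gene on the far side of the cluster, had 4872, 5435 and 3614 reads and a log2 fold change in KD-2 of -0.54 (FDR = 0.0628). Lnp, on the Evx2 side, had 3894, 3788 and 3100 reads and a value of -0.44. The microRNA gene Mir10b, which lies within the span of Hoxd4, had no read in any library. It is 68 bases long and the reads were 50 bp, so this count is no measure of the mature microRNA. The exact interval of a count of 0 runs to 3.69 reads, or 0.0528 CPM (reads scaled to library size alone) in control.

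The other Hox clusters, on other chromosomes, were measured in the same libraries. In KD-1, none of 11 HoxA genes was called, 1 of 10 HoxB genes was higher (Hoxb13, 4 reads in control and 31 in KD-1) and 1 of 9 HoxC genes was lower (Hoxc6, 17 and 3 reads). In KD-2, 7 HoxA genes were called higher: Hoxa4, Hoxa5, Hoxa7, Hoxa9, Hoxa10, Hoxa11 and Hoxa13. Hoxa10 had 410 reads in control and 887 in KD-2 (log2 fold change 1.01, SE 0.22, edgeR FDR = 0.000308), and Hoxa13, the HoxA relative of Hoxd13, had 96 and 244 (1.24, SE 0.27, FDR = 0.000191). Hoxb3, Hoxb4 and Hoxb6 were called higher among HoxB genes and Hoxc8 among HoxC genes, and no HoxA, HoxB or HoxC gene was called lower. The summed log2 ratio in KD-2 was 1.00 for HoxA, 1.19 for HoxB and 0.42 for HoxC, beside 0.60 for HoxD. In KD-2 against KD-1, 6 HoxA genes, 4 HoxB genes (Hoxb2, Hoxb3, Hoxb6 and Hoxb7) and Hoxc6 were called higher and none was called lower. All these comparisons share libraries, and differences between clusters were not tested.

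**Figure D2:**
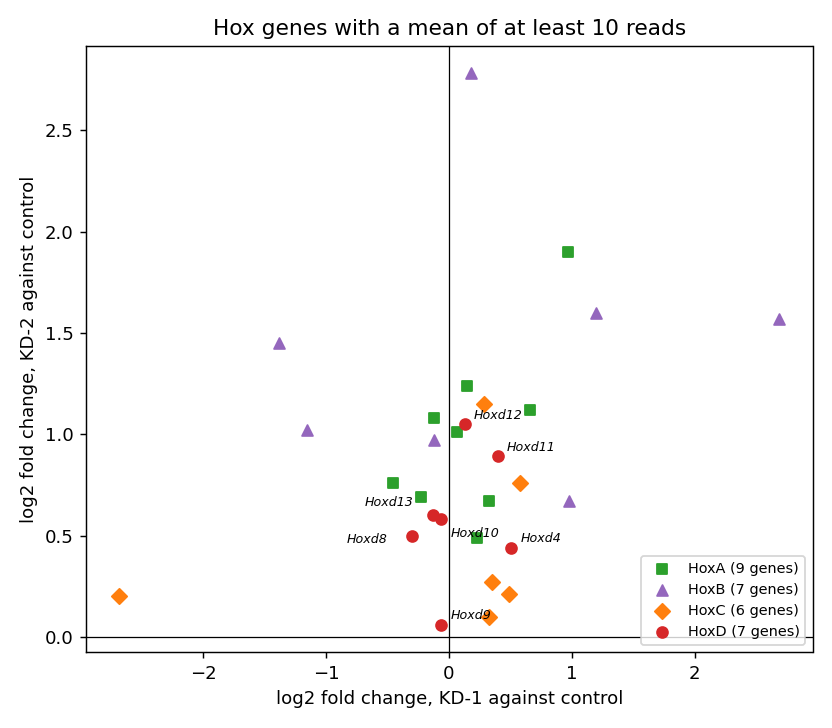
Log2 fold change in KD-1 (horizontal) and KD-2 (vertical) against the same control library, for Hox genes averaging 10 or more reads; colours and shapes mark the clusters and the 7 HoxD genes are named. The HoxD genes lie between 0.06 and 1.05 on the KD-2 axis and between -0.30 and 0.51 on the KD-1 axis.

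Hox proteins bind DNA with cofactors of the Pbx, Meis and Pknox families. Of 9 such genes, Meis2 was the only one called in KD-1 or KD-2, and it was higher in both, with 363, 726 and 645 reads (log2 fold changes 0.77 and 0.72, edgeR FDR = 0.0246 and 0.0167). Meis3 was higher in KD-2 than in KD-1 (19 and 40 reads, log2 fold change 1.19, FDR = 0.0405). Of 10 genes that induce Hox genes or act in retinoic acid signalling, Cdx2, which activates posterior Hox genes, was called in KD-2, with 6 reads in control and 24 in KD-2 (1.87, SE 0.69, FDR = 0.0268). It had 25 reads in KD-1, where none of the 10 was called.

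The summed markers of the feeder fibroblasts were lowest in KD-1 and highest in KD-2. The HoxD sum had the same order, with a much smaller difference in KD-1, a log2 ratio of -0.09 (interval -0.18 to 0.00). Without Hoxd13 that ratio was 0.01 (-0.16 to 0.18), so the shared order rests on Hoxd13. The 16 feeder markers summed to 1602, 792.8 and 3020 CPM, none was at 0 in any library, and Col3a1, a fibroblast collagen, was the highest. In KD-1, 8 of the 16 were called lower and none higher (median log2 fold change -0.80). In KD-2, 12 were called higher and none lower (median 0.78), and against KD-1 all 16 were higher. The 10 ES cell markers summed to 4880, 5310 and 3569 CPM, with Zfp42 or Dppa5a the highest. None of the 10 was called in KD-1, and in KD-2 3 were lower and 1 higher. The ES cell label thus fits these libraries. The feeder markers are fibroblast and matrix genes, and reads from feeder cells and from cells of the ES line that express the same genes cannot be told apart.

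The HoxD genes had 16.5 reads for each 1000 feeder-marker reads in control, against 31.3 for KD-1 and 13.3 for KD-2. In KD-1 the feeder sum fell to a ratio of 0.495 while the HoxD sum had a ratio of 0.941, and in KD-2 the ratios were 1.88 and 1.52. Subtracting the feeder log2 ratio from the HoxD ratio left 0.93 for KD-1, -0.31 for KD-2 and -1.24 for KD-2 against KD-1. The feeder sum leans on Col3a1, which held 54628 of its 111984 reads in control and 114064 of 227295 in KD-2. Single feeder markers had log2 fold changes from -2.01 (Postn) to -0.12 (Twist2) in KD-1. In KD-2 they ran from 0.37 (Thy1) to 1.58 (Col5a1). Of the 9 members, 0, 7 and 9 lay below the ratio of the feeder sum in KD-1, KD-2 and KD-2 against KD-1. The part of the feeder markers' source in these differences was likewise not tested.

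Among 12734 genes outside the Hox clusters that averaged 100 or more reads, the 3 whose pair of log2 fold changes lay nearest to that of the summed HoxD reads were 3110039I08Rik (522, 575 and 859 reads in control, KD-1 and KD-2), Irgq (763, 844 and 1239 reads) and Klhl18 (232, 257 and 383 reads). Their Euclidean distances were 0.0068, 0.0140 and 0.0140 over the 3 libraries. In all, 140 of the genes lay within 0.1.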

How the data were processed

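RNA-seq of 3 cultures (control, KD-1 and KD-2, 1 library each, grouped by sample title) was analysed. The authors deposited raw read counts per gene, per the labels made with Trim Galore 0.4.1, TopHat2 2.1.1 on mm10 and HTSeq, while the methods name featureCounts and a mapping quality filter. Rows that name no gene held 23.49%, 25.61% and 22.97% of the reads in control, KD-1 and KD-2 and were left out. The study's dispersion came from spike-in RNAs, whose counts were not used here.

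Counts were fitted for all genes with edgeR 4.0.16 in R 4.3.3 (likelihood ratio test, upper-quartile normalization, fixed dispersion 0.01, prior count 0.125, no filter, Benjamini-Hochberg FDR). Both knockdowns against control used the quasi-likelihood test with TMM, and DESeq2 1.42.0 as an alternative. RPKM was computed from scaled library sizes and GENCODE exon lengths. Without molecular identifiers, intervals cover counting error only. Procedures were tested on simulated data drawn at the same dispersion of 0.01, with changes placed only in genes with many reads. That cannot check the assumed dispersion or the members with few reads.

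All 9 members, Nup153, list genes called in a comparison, the leading marker of each list and the 3 nearest genes were named. The members and lists were chosen with earlier results of these data known. Alternatives were other scalings, dispersions, filters, prior counts and fold thresholds.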

Additional observations from a re-analysis of the deposited data

How the results depend on the processing

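No paired analysis was possible because each condition has 1 library, and for the same reason no library could be left out. The count of HoxD genes called was 0 in KD-1, and 0 for both knockdowns against control, under every setting run. In KD-2 it was 3 in the main analysis, 5 when libraries were scaled by their totals (Hoxd8 and Hoxd10 added), 1 with a fold threshold of 2 (Hoxd12), and 0 at a dispersion of 0.04 or 0.16. For KD-2 against KD-1 it was 3, and 0 at either of those dispersions or with a fold threshold of 2, and 4, with Hoxd10 added, under TMM, DESeq2 size factors, library totals, a dispersion of 0.001 or a minimum mean of 10 reads. The summed HoxD log2 ratio in KD-2 moved from 0.60 to 0.76 with library totals. For KD-2 against KD-1 it moved from 0.69 to 0.80 with DESeq2 size factors, 0.86 with library totals and 0.61 without Hoxd13, a setting chosen after seeing the data. In KD-1 it changed sign without Hoxd13, from -0.09 to 0.01. Hoxd4 in KD-2 against KD-1 went from -0.06 to 0.04 with DESeq2 size factors and 0.10 with library totals. Library totals raised the median over the 16670 genes averaging 10 or more reads by 0.16 in KD-2 and 0.17 in KD-2 against KD-1.

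Over all genes, calls in KD-1 went from 771 to 1685, 70 and 0 at dispersions of 0.001, 0.04 and 0.16 and to 429 with a fold threshold of 2. In KD-2 they went from 3127 to 58 and 0 at 0.04 and 0.16 and to 993, and in KD-2 against KD-1 from 3961 to 616, 0 and 1768. The calls for both knockdowns went from 4 to 2 under upper-quartile scaling, DESeq2 size factors or the Wald test, and to 0 with a minimum mean of 10 reads. Higher and lower calls split 1982 to 1145 in KD-2, and 2972 to 447 with library totals. In KD-1 they split 392 to 379, and 313 to 487 with DESeq2 size factors. In KD-2 against KD-1 they split 2320 to 1641, 2700 to 964 with DESeq2 size factors and 3007 to 691 with library totals. At the counts of Hoxd1, Hoxd3 and Hoxd4, the intervals of the ratios to control included both no change and a fold of 2.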

Other observations

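Early lineage markers were counted in the same libraries. Of 6 mesoderm markers none was called in KD-1, and 1 was called higher in KD-2, Meox1, a somite gene with 14, 30 and 37 reads in control, KD-1 and KD-2. Of 6 neural markers, 5 had a read and none was called against control, while in KD-2 against KD-1 Pax6 and Nes were lower and Zic1 was higher. Of 6 primitive endoderm markers Gata6 and Dab2 were higher in the KD-2 library and none was called for KD-1. Gata6, which encodes a factor that drives endoderm fate, had 46, 63 and 105 reads, with a log2 fold change in KD-2 of 1.08 (SE 0.33, edgeR FDR = 0.0111). The genes of these lists named here were chosen after their values were seen.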
